A study of Mus musculus with 15 samples.

Results

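Receptors for monoamines, acetylcholine and neuropeptides were described across neurons, astrocytes and microglia of the mouse cortex. The set was formed by gene symbol: every gene whose symbol marks it as an adrenergic, serotonin, dopamine, muscarinic, nicotinic, histamine, neurotensin, opioid or nociceptin, neuropeptide Y, somatostatin, VIP (vasoactive intestinal peptide) or tachykinin receptor was taken. That gave 74 of the 20610 genes measured. No expression value entered the choice.

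Each of the 15 libraries held polyA RNA from 1 kind of cell, isolated by a magnetic method from the cortex of wild-type (WT) male mice at postnatal day 28, with 5 libraries each of neurons, astrocytes and microglia. No treatment or transgene is given for any group. The labels tie no library to an animal, so p-values measure only the spread between these libraries. Levels are given in TPM, a transcript abundance corrected for length that sums to 1000000 in every library. The labels state a mean of 30000000 reads for each library, and the depth behind single values is unknown.

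Most of these receptors are G protein-coupled: Gs-coupled receptors raise cyclic AMP, Gi-coupled receptors lower it, and Gq-coupled receptors release calcium through phospholipase C. The nicotinic receptors and the serotonin receptor subunits encoded by Htr3a and Htr3b are instead cation channels that open on binding transmitter. In the cortex, noradrenaline, serotonin, dopamine, histamine and acetylcholine arrive largely on fibres from subcortical nuclei, whereas many neuropeptides are made by local interneurons.

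Markers of the isolated and of other cell types were summed in each library. The sum of 15 pan-neuronal markers was 1805 ± 479 TPM in neuron libraries, 345 ± 96.4 TPM in astrocyte libraries and 127 ± 83.8 TPM in microglia libraries (SD, n = 5 each). The sum of 12 astrocyte markers ranged over 192 to 328 TPM in neuron libraries, 19530 to 23180 TPM in astrocyte libraries and 279 to 671 TPM in microglia libraries. For 12 microglia markers the ranges were 71.8 to 125 TPM in neuron libraries, 165 to 231 TPM in astrocyte libraries and 63780 to 100400 TPM in microglia libraries. The neuron libraries also carried the highest sum of 12 endothelial markers, at 6827 to 10200 TPM against 662 to 1140 TPM in astrocyte and 90.4 to 182 TPM in microglia libraries. Their sum of 10 mural cell markers, 2395 to 4528 TPM, also lay above the 1529 to 2210 TPM of astrocyte and the 88.5 to 218 TPM of microglia libraries. Most of the excess over astrocytes lay in Acta2 (mean 1303 against 99.6 TPM) and Tagln (286 against 23.55 TPM). Vtn was near level (1568 against 1553 TPM). Only Pdgfrb (12.56 against 18.84 TPM) and Abcc9 (4.20 against 4.88 TPM) were higher in astrocytes. The sum of 10 oligodendrocyte markers was 212 to 10370 TPM in neuron libraries, 445 to 3810 TPM in astrocyte libraries and 252 to 69790 TPM in microglia libraries, and microglia libraries 1 and 2 stood apart at 69790 and 52000 TPM. Fibroblast and meningeal markers (6) summed to 213 ± 73.3 TPM in neurons, 976 ± 187 TPM in astrocytes and 63.9 ± 18.2 TPM in microglia. For 6 ependymal and choroid plexus markers these sums were 714 ± 186, 1057 ± 299 and 82.55 ± 38.2 TPM. Of these, only Ttr was higher in neurons than in astrocytes. For 7 border macrophage markers they were 46.8 ± 9.21, 59.7 ± 11.8 and 1401 ± 249 TPM. The part of these cells in receptor levels was not tested. No marker on any of these lists was at 0 in a whole group. In such bulk libraries, fewer cells of a type and less RNA per cell cannot be told apart.

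Promoter sequences are shown for receptors that were highest in one cell type, because they let the start regions of a neuron, an astrocyte and a microglia receptor be set side by side. RefSeq promoter windows on GRCm38.p6, covering 250 bases before to 50 bases after a start site, matched 57 of the 74 genes, with 71 windows. Capitals mark CG dinucleotides. The first pair, Ntsr2 (neurotensin receptor) and Adra2a (an alpha adrenergic receptor), belongs to receptors highest in astrocytes, the next pair, Npy1r (a neuropeptide Y receptor) and Sstr2 (a somatostatin receptor), to receptors highest in neurons, and Adrb1 (a beta adrenergic receptor) to those highest in microglia.
Ntsr2 chr12:16653220-16653519 (+ strand): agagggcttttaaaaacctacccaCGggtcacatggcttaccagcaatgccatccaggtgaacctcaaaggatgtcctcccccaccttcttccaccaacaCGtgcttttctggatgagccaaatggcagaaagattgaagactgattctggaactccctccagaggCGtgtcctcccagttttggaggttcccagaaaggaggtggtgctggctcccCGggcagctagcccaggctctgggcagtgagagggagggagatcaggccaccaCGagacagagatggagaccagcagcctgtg
Adra2a chr19:54045009-54045308 (+ strand): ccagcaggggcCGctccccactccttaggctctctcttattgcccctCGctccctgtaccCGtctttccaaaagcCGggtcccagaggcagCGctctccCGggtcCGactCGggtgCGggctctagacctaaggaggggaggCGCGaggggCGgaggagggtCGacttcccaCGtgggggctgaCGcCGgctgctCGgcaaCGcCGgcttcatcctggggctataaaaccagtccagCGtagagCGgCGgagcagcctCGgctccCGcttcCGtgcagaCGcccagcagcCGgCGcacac
Npy1r chr8:66697172-66697471 (+ strand): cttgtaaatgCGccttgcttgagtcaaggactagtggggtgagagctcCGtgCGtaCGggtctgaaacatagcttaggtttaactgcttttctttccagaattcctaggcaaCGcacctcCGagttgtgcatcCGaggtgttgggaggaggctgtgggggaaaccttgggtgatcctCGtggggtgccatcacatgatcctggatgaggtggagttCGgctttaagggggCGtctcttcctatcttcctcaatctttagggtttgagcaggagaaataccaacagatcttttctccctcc
Sstr2 chr11:113619077-113619376 (+ strand): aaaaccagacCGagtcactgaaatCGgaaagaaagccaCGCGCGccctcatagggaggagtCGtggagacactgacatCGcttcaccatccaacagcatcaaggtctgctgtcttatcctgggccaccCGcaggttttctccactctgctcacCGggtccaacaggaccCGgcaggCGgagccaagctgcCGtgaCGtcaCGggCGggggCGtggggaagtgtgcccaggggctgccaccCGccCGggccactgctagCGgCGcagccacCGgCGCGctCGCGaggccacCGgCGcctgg
Adrb1 chr19:56721867-56722166 (+ strand): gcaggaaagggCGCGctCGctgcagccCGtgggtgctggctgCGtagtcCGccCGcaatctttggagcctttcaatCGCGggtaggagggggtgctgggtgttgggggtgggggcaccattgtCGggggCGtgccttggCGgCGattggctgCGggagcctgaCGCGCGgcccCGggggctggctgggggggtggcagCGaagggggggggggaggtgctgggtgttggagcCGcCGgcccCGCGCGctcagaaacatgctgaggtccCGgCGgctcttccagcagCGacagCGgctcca
The Ntsr2 window held 5 CG dinucleotides and 56.3% G or C, and the Adra2a window held 28 and 68.7%. The Npy1r window held 10, the Sstr2 window 27 and the Adrb1 window 28. The number thus differed within the astrocyte pair and within the neuron pair. Over all 71 receptor windows the median was 11.0 CG dinucleotides, against 7.0 over the 32851 windows of all genes, and 42.3% of receptor windows against 34.6% of all windows held at least 15. These windows overlap within genes and are a description.

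Both strands were searched for 3 short motifs. GGAAGT, a core shared by sites of ETS factors such as the myeloid factor PU.1, was in 19.7% of the receptor windows and in 23.8% of all windows. TTGGCA, part of the site of nuclear factor I, was in 11.3% of receptor windows and 14.1% of all windows. CAGATG, an E-box bound by NeuroD factors, was in 7.04% of receptor windows and 17.2% of all windows. A match here marks letters and not a bound site, and no match says only that the letters are not in this window.

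Few of these receptors reached high levels in any cell type. By the mean in its highest cell type, 9 genes reached 5 TPM or more, 15 lay from 1 to 5 TPM, 48 lay above 0 but under 1 TPM, and Htr3b and Npy4r were listed at 0 in every library. Of the 9 genes at 5 TPM or more, 4 were highest in neurons (Npy1r, Chrna4, Chrnb1 and Hrh3), 4 in astrocytes (Ntsr2, Hrh1, Adra2a and Htr5b) and 1 in microglia. Among all detected members, the mean was highest in neurons for 43, in astrocytes for 24 and in microglia for 5. Of these, 29, 17 and 2 averaged under 1 TPM even there, and 12 genes had a highest mean under 0.1 TPM. The same count over all genes was not made, so no leaning of the set to a cell type is read from it. Neuron libraries had 18 to 24 receptor genes at 1 TPM or more, astrocyte libraries 12 to 20 and microglia libraries 4 to 7. The count in microglia lay below that of every other library, while the neuron and astrocyte ranges met. Over all genes the same held: microglia libraries had 10598 to 11152 genes at 1 TPM or more, and the other libraries 11933 to 12971.

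Summed over all 74 genes, the level was 81.6 to 142 TPM in neurons, 2550 to 3152 TPM in astrocytes and 158 to 257 TPM in microglia. Ntsr2 accounted for nearly all of the astrocyte sum.

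**Figure D1:**
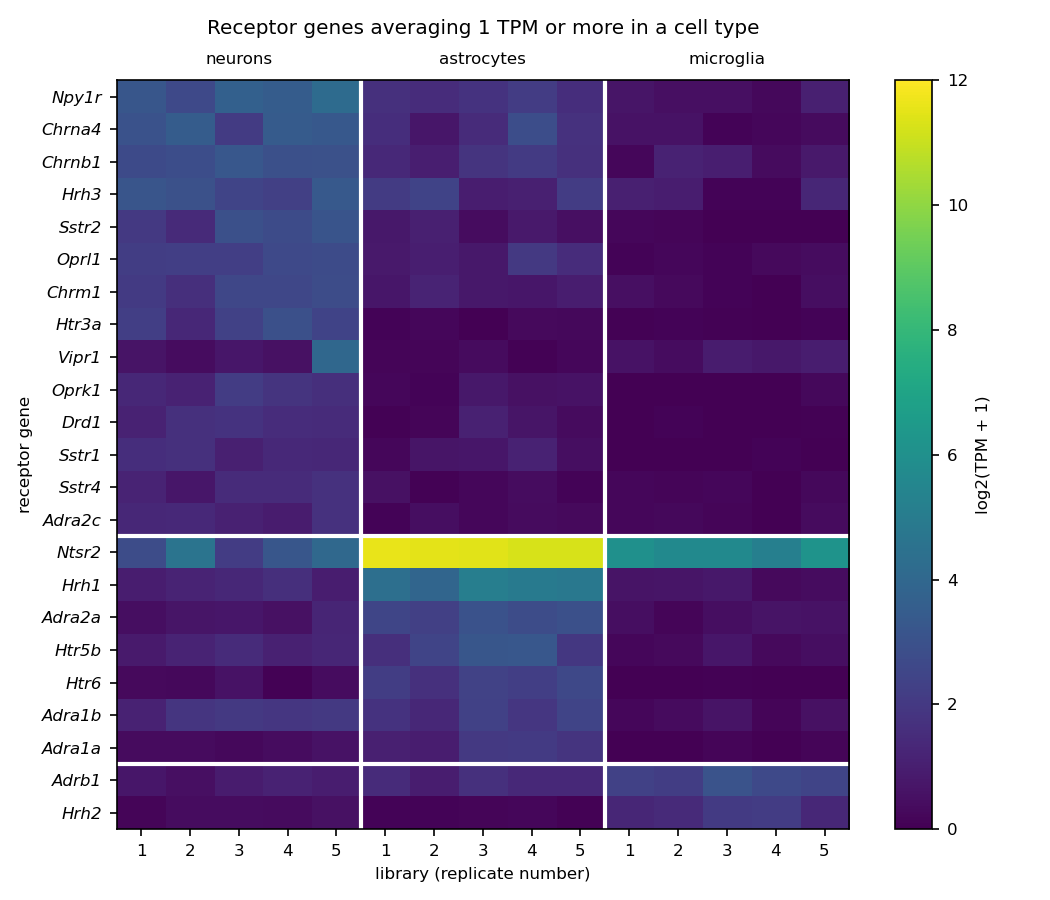
Rows are receptor genes with a mean of 1 TPM or more in at least 1 cell type, each column 1 library in the order neurons, astrocytes, microglia, and the colour is the level on the log2(TPM + 1) scale. Ntsr2 in the 5 astrocyte libraries (2471 to 3096 TPM) holds the brightest cells, followed among astrocyte receptors by Hrh1 (13.91 to 33.57 TPM).

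The 3 comparisons between cell types were tested with limma on log2(TPM + 1) across the 13351 genes that reached 1 TPM in at least 5 libraries, with Benjamini-Hochberg adjustment over all of them. Calls required a log2 difference of at least 1 in size together with an adjusted p below 0.05. The pseudocount of 1 makes these differences understate the change of low genes. Only 20 of the 74 receptors passed the filter, and 54 did not. A receptor that passed only through the cell type where it is high had to differ, so the counts below describe the 20 and do not weigh in favour of any pattern.

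In neurons against astrocytes, 11 receptors were higher, where 12.9% of all tested genes were higher, and 5 were lower, where 12.7% of all tested genes were lower. The median log2 difference was 1.08 over the 20 receptors and -0.03 over all genes tested. In neurons against microglia, 12 receptors were higher against 29.5% of all tested genes, and 4 were lower against 9.74%, with medians of 1.43 and 0.48. In astrocytes against microglia, 9 receptors were higher against 32.3% of all tested genes, and 3 were lower against 10.2%, with medians of 0.94 and 0.57. Both comparisons with microglia depend on the scaling. Median-of-ratios scaling moved the median of all genes by -0.51 in neurons minus microglia and by -0.54 in astrocytes minus microglia. Under it, 55.8% of all calls in neurons against microglia and 53.4% of those in astrocytes against microglia were higher, where the deposited TPM gave 75.2% and 76.0%. Receptors higher in astrocytes than in microglia numbered 6 under that scaling and 5 under quantile normalization.

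A receptor called higher in 1 cell type than in both others is termed enriched there. Neurons had 10 such receptors (9.58% of all tested genes were enriched in neurons), namely Npy1r, Chrna4, Sstr2, Chrnb1, Htr3a, Oprl1, Hrh3, Chrm1, Oprk1 and Drd1. Astrocytes had 5 (background 10.2%), namely Ntsr2, Hrh1, Adra2a, Htr6 and Htr5b. Microglia had 3 (background 7.42%), of which Adrb1 and Hrh2 are described here. The other 2 tested receptors, Adra1b and Sstr1, were enriched in none. By coupling, the neuron set held 5 Gi-coupled receptors, 3 ion channel subunits, 1 Gq-coupled and 1 Gs-coupled receptor. Adrb1 and Hrh2, highest in microglia, both couple to Gs and raise cyclic AMP.

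**Figure D2:**
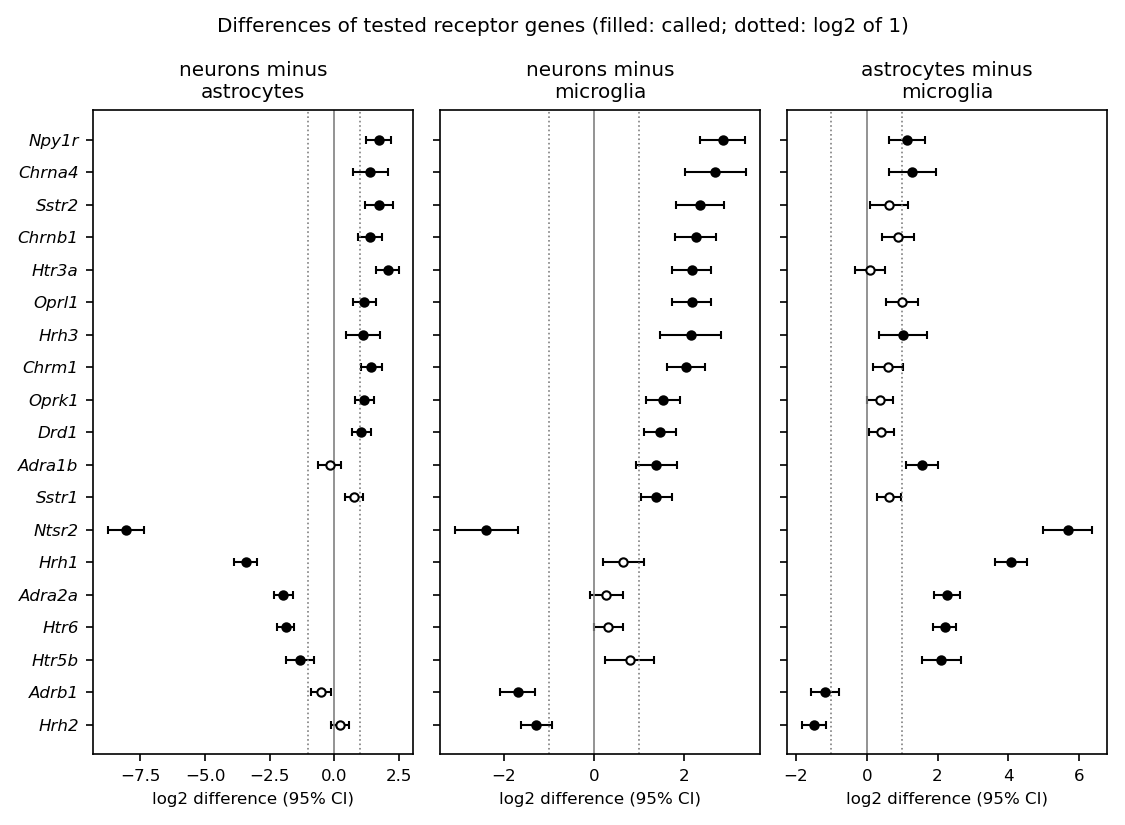
Each panel shows 1 comparison, with the log2 differences of tested receptors on the log2(TPM + 1) scale and its 95% confidence interval; filled points were called and dotted lines mark a difference of 1 in size. Ntsr2 lies farthest left in neurons minus astrocytes at -8.06 and farthest right in astrocytes minus microglia at 5.68.

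Among the adrenergic receptors, which bind noradrenaline and adrenaline, the Gs-coupled beta receptor Adrb1 (chr19:56722199-56733113, plus strand) was highest in microglia. It stood at 0.66, 0.41, 0.87, 1.2 and 0.97 TPM in neurons, 1.78, 0.92, 2.14, 1.62 and 1.57 TPM in astrocytes, and 4.04, 3.56, 7.34, 5.19 and 4.56 TPM in microglia. Every microglia library lay above every other library, and microglia libraries 1 and 2, the pair with the highest oligodendrocyte marker sums, were the lowest of the 5. The part of oligodendrocyte RNA in this was not tested. The log2 difference was -1.69 (SE 0.18) in neurons minus microglia and -1.17 (SE 0.18) in astrocytes minus microglia (limma, adjusted p = 2.57e-07 and 1.88e-05), and the -0.51 in neurons minus astrocytes was too small to be called (adjusted p = 0.0255). Adrb3, the beta receptor best known from fat, averaged 0.552 TPM in neurons, 0.604 TPM in astrocytes and 0.028 TPM in microglia, and was not tested. Antisense exons of another annotated gene overlap 24.9% of its exonic bases, and whether counting used strand is not given in the sources used here.

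The alpha receptors had their highest sum in astrocytes, at 5.11 ± 1.39 TPM in neurons, 11.3 ± 3.57 TPM in astrocytes and 0.892 ± 0.316 TPM in microglia (SD, n = 5 each). Adra2a, the Gi-coupled target of clonidine and guanfacine (chr19:54044151-54048982, plus strand), led them. It was at 0.37, 0.58, 0.64, 0.46 and 1.38 TPM in neurons, 4.77, 3.88, 7.07, 5.95 and 6.5 TPM in astrocytes, and 0.36, 0.13, 0.34, 0.54 and 0.48 TPM in microglia. Astrocyte libraries lay above all others, and neurons overlapped microglia. The differences were -1.98 (SE 0.17) in neurons minus astrocytes and 2.26 (SE 0.17) in astrocytes minus microglia on the log2 scale (limma, adjusted p = 3.47e-08 and 2.17e-09).

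Adra1b, a Gq-coupled alpha receptor (chr11:43774606-43901210, minus strand), was shared by neurons and astrocytes. Its level was 1.22, 2.56, 3.04, 2.72 and 2.93 TPM in neurons, 2.35, 1.51, 4.0, 2.73 and 4.46 TPM in astrocytes, and 0.17, 0.29, 0.56, 0.12 and 0.45 TPM in microglia. Neurons and astrocytes overlapped, with a log2 difference of -0.18 and a 95% interval of -0.62 to 0.27, and both lay above microglia by 1.39 and 1.56 on the log2 scale (SE 0.21, limma adjusted p = 1.52e-05 and 3.52e-06). Under quantile normalization those 2 differences were 0.76 and 0.94, short of the size needed for a call.

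Its relative Adra1a missed the filter, although it averaged 0.316 ± 0.109 TPM in neurons, 2.12 ± 1.03 TPM in astrocytes and 0.052 ± 0.059 TPM in microglia (SD, n = 5 each), because only 4 astrocyte libraries reached 1 TPM. With no filter on low values it was lower in neurons than in astrocytes by a log2 difference of -1.18, and higher in astrocytes than in microglia by 1.498 (limma, adjusted p = 9.06e-05 and 4.07e-06). Adra2c, a Gi-coupled receptor, also missed the filter, at 1.49 ± 0.514 TPM in neurons, 0.228 ± 0.111 TPM in astrocytes and 0.148 ± 0.0999 TPM in microglia. Without the filter it was higher in neurons than in microglia by 1.10 (limma, adjusted p = 1.51e-06). Its difference of 0.999 in neurons minus astrocytes fell just short of the size needed for a call (limma, adjusted p = 7.94e-06). Adra1d and Adra2b stayed under 0.25 TPM in every group mean.

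**Figure D3:**
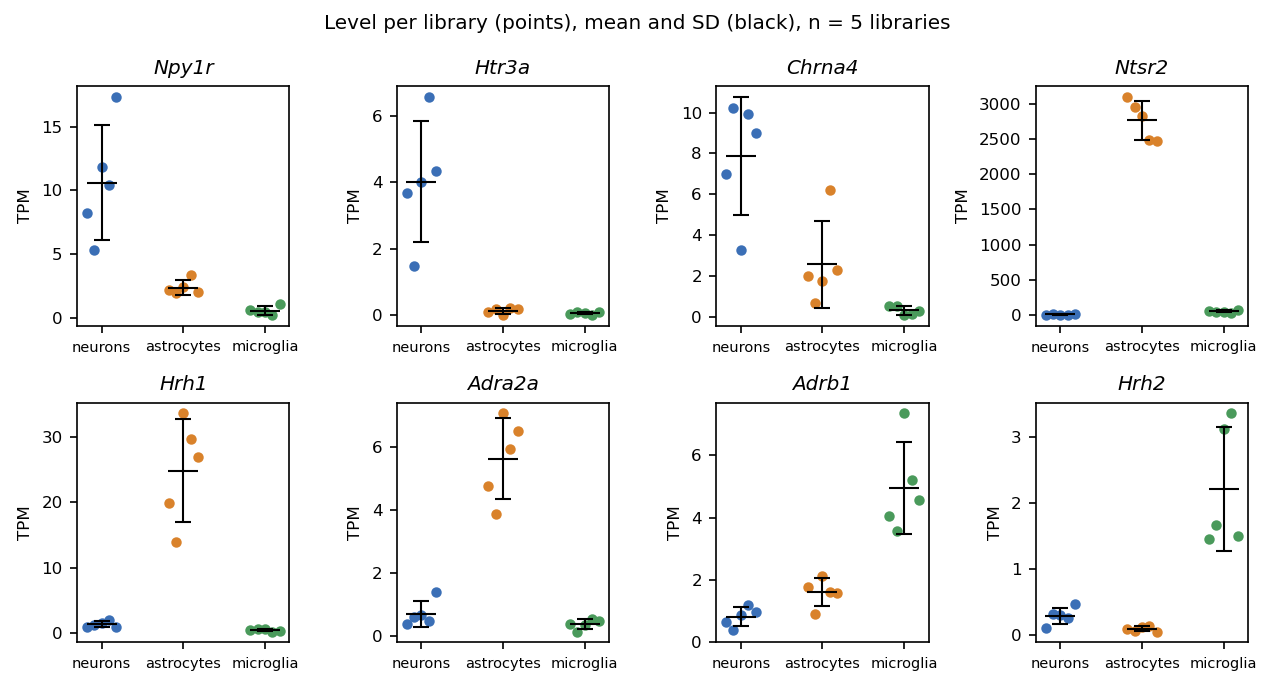
Points are the TPM of single libraries of neurons, astrocytes and microglia, and black marks the mean and SD (n = 5 libraries each), for 3 neuron-enriched, 3 astrocyte-enriched and 2 microglia-enriched receptors. The axis differs between panels. Npy1r is highest in neurons, Ntsr2 and Hrh1 are highest in astrocytes, and Adrb1 and Hrh2 are highest in microglia.

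Dopamine receptors were low in every group, with sums of 2.90 ± 0.171 TPM in neurons, 0.848 ± 0.576 TPM in astrocytes and 0.118 ± 0.077 TPM in microglia (SD, n = 5 each). Drd1, the Gs-coupled receptor (chr13:54051183-54055705, minus strand), was the only tested member. It was at 1.22, 2.14, 2.42, 1.88 and 1.80 TPM in neurons, 0.05, 0.12, 1.12, 0.60 and 0.26 TPM in astrocytes, and 0.02, 0.09, 0.03, 0 and 0.05 TPM in microglia. Neuron libraries did not overlap the others. The difference of 1.05 (SE 0.17) in neurons minus astrocytes passed the size limit narrowly (limma, adjusted p = 5.26e-05). It was 0.99 without neuron library 3, 0.95 without astrocyte library 1, 0.98 without astrocyte library 2 and 0.96 under quantile normalization, so that call was lost in each case. In neurons minus microglia it was 1.46 (SE 0.17, adjusted p = 6.10e-07). Drd2, the Gi-coupled counterpart, averaged 0.768 TPM in neurons, 0.1 TPM in astrocytes and 0.07 TPM in microglia, and Drd3, Drd4 and Drd5 stayed under 0.2 TPM in every group mean. Antisense exons of another annotated gene overlap 48.6% of the exonic bases of Drd5.

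Serotonin receptors divided between cell types by gene. Htr3a, the cation channel subunit that marks a class of cortical interneurons (chr9:48899213-48911099, minus strand), was at 3.68, 1.49, 4.02, 6.57 and 4.34 TPM in neurons, 0.09, 0.17, 0, 0.22 and 0.18 TPM in astrocytes, and 0.04, 0.08, 0.06, 0 and 0.09 TPM in microglia. All 5 neuron libraries lay above the rest. It was higher in neurons by 2.07 (SE 0.20) than in astrocytes and by 2.17 (SE 0.20) than in microglia on the log2 scale (limma, adjusted p = 1.48e-07 and 3.69e-08). Its partner subunit Htr3b was listed at 0 in all 15 libraries.

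The metabotropic serotonin receptors had sums of 6.30 ± 1.65 TPM in neurons, 10.9 ± 3.66 TPM in astrocytes and 0.944 ± 0.514 TPM in microglia (SD, n = 5 each). Htr6 (chr4:139061108-139075570, minus strand) and Htr5b (chr1:121509842-121528465, minus strand) carried most of the astrocyte sum. Htr6, a Gs-coupled receptor, stood at 0.25, 0.19, 0.52, 0.06 and 0.32 TPM in neurons, 3.56, 2.15, 4.24, 3.75 and 5.04 TPM in astrocytes, and 0, 0, 0.05, 0 and 0 TPM in microglia. Astrocyte libraries lay above every other. The log2 difference was -1.88 (SE 0.15) in neurons minus astrocytes and 2.20 (SE 0.15) in astrocytes minus microglia (limma, adjusted p = 1.39e-08 and 5.59e-10).

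Htr5b, a gene that is intact in rodents and a pseudogene in humans, was more variable. Its level was 0.81, 1.30, 1.76, 1.12 and 1.43 TPM in neurons, 2.04, 4.55, 8.22, 8.48 and 2.90 TPM in astrocytes, and 0.16, 0.22, 0.63, 0.24 and 0.34 TPM in microglia. Groups did not overlap, and astrocyte libraries 3 and 4 were the highest. The difference was -1.32 (SE 0.26) in neurons minus astrocytes and 2.11 (SE 0.26) in astrocytes minus microglia (limma, adjusted p = 3.60e-04 and 1.09e-06). Without all libraries numbered 3 and 4 the neuron minus astrocyte value was -0.90, which is not a call.

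The remaining 10 metabotropic serotonin receptors missed the filter, with group means of at most 0.864 TPM. Htr1b (0.864 TPM), Htr2c (0.844 TPM), Htr7 (0.770 TPM), Htr2a (0.632 TPM), Htr1f (0.544 TPM), Htr1a (0.402 TPM) and Htr5a (0.326 TPM) had their highest mean in neurons, as did Htr4 at 0.086 TPM. Htr1d at 0.618 TPM and Htr2b at 0.338 TPM were highest in astrocytes. Of the exonic bases of Htr2b, 11.8% overlap exons of the antisense gene Psmd1.

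Hrh1, Hrh2 and Hrh3, 3 of the 4 histamine receptors, each led in a different cell type. Hrh1, the Gq-coupled receptor blocked by sedating antihistamines (chr6:114397936-114483296, plus strand), was the astrocyte receptor with the highest level after Ntsr2. It was at 0.95, 1.29, 1.49, 2.04 and 0.97 TPM in neurons, 19.95, 13.91, 33.57, 29.67 and 26.95 TPM in astrocytes, and 0.54, 0.60, 0.70, 0.25 and 0.32 TPM in microglia. No group overlapped another. The log2 difference was -3.42 (SE 0.21) in neurons minus astrocytes and 4.07 (SE 0.21) in astrocytes minus microglia (limma, adjusted p = 3.59e-10 and 1.03e-11). Neurons exceeded microglia by 0.65, too little for a call.

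Hrh2, the Gs-coupled receptor known from gastric acid secretion (chr13:54192129-54236180, plus strand), was highest in microglia. Its level was 0.12, 0.32, 0.31, 0.26 and 0.47 TPM in neurons, 0.10, 0.07, 0.13, 0.15 and 0.06 TPM in astrocytes, and 1.46, 1.67, 3.12, 3.36 and 1.5 TPM in microglia. Microglia libraries did not overlap the others. The difference was -1.27 (SE 0.16) in neurons minus microglia and -1.5 (SE 0.16) in astrocytes minus microglia (limma, adjusted p = 1.51e-06 and 1.67e-07). Microglia libraries 3 and 4 were the highest, and without all libraries numbered 3 and 4 the neuron minus microglia value was -0.97, which is not a call.

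Hrh3, the Gi-coupled receptor that also restrains histamine release as an autoreceptor (chr2:180099465-180104488, minus strand), was highest in neurons. Values were 8.03, 6.83, 4.48, 3.85 and 9.20 TPM in neurons, 3.20, 4.36, 0.96, 1.07 and 3.40 TPM in astrocytes, and 1.11, 0.95, 0.08, 0.07 and 1.42 TPM in microglia. In each cell type, libraries 3 and 4 were the lowest, and neurons overlapped astrocytes, as astrocytes did microglia. The sum of the 10 excitatory neuron markers was also lowest in these libraries, at 100.7 and 96.6 TPM in neurons (others 294 to 380 TPM), 68.2 and 79.1 TPM in astrocytes (others 85.5 to 117 TPM) and 8.66 and 4.59 TPM in microglia (others 57.8 to 61.3 TPM). The oligodendrocyte marker sum was lowest there too, at 212 and 236 TPM in neurons, 628 and 445 TPM in astrocytes and 6749 and 252 TPM in microglia. In neuron libraries 3 and 4 the pan-neuronal sum, 1926 and 1594 TPM (others 1396 to 2587 TPM), was not lowest. Nor was the inhibitory neuron marker sum, 172.3 and 206.0 TPM (others 165.5 to 472.5 TPM). In astrocytes and microglia the pan-neuronal sum was lowest in libraries 3 and 4. Among the excitatory markers, Rorb and Fezf2 averaged 17.9 and 13.6 TPM in astrocytes, above 1.18 and 1.85 TPM in neurons. The rest were highest in neurons. The part of neuronal or oligodendrocyte RNA in the Hrh3 levels was not tested. The difference was 1.12 (SE 0.32) in neurons minus astrocytes, 2.14 (SE 0.32) in neurons minus microglia and 1.03 (SE 0.32) in astrocytes minus microglia (limma, adjusted p = 0.00679, 1.12e-05 and 0.00824). The first of these calls was lost without neuron library 5 (0.99), astrocyte library 3 (0.93) or astrocyte library 4 (0.95), without all libraries numbered 3 and 4 (0.95), and with a pseudocount of 0.1 (adjusted p = 0.0585). The third was lost without astrocyte library 1 (0.94), 2 (0.85) or 5 (0.92), without microglia library 3 (0.88) or 4 (0.87), without all libraries numbered 1 and 2 (0.89), and under median-of-ratios scaling (0.71) and quantile normalization (0.52). Of the tested genes, 241 (1.81%) were lowest in libraries 3 and 4 of all 3 cell types, and Hrh3 was the only receptor among them. Antisense exons of another annotated gene overlap 11.1% of its exonic bases. Hrh4, best known from blood cells, was above 0 in 1 library.

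**Figure D4:**
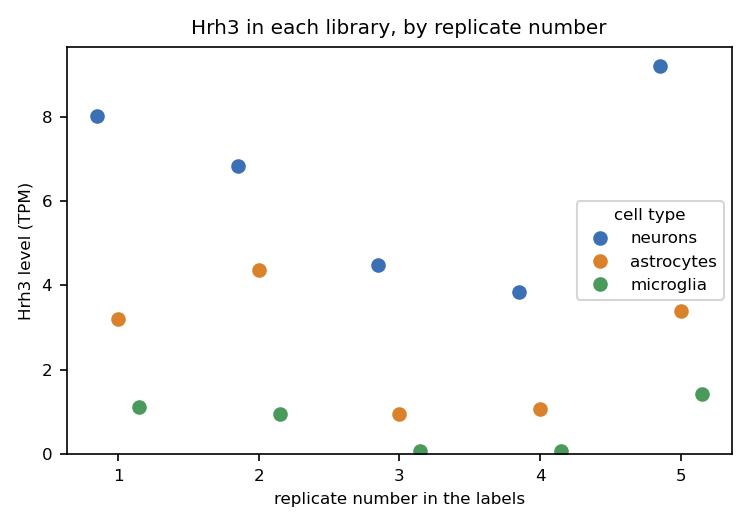
Each point is the Hrh3 level of 1 library in TPM, by the replicate number in the labels, for neurons, astrocytes and microglia. In each cell type the libraries numbered 3 and 4 hold the lowest values, 4.48 and 3.85 TPM in neurons, 0.96 and 1.07 TPM in astrocytes, and 0.08 and 0.07 TPM in microglia.

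Acetylcholine acts on muscarinic receptors, which couple to G proteins, and on nicotinic channels. The muscarinic sum was 6.14 ± 2.27 TPM in neurons, 1.22 ± 0.224 TPM in astrocytes and 0.304 ± 0.157 TPM in microglia (SD, n = 5 each). Chrm1, the Gq-coupled receptor prominent on cortical principal neurons (chr19:8663789-8683587, plus strand), supplied most of it. It was at 3.17, 2.02, 4.90, 4.88 and 6.02 TPM in neurons, 0.63, 1.27, 0.73, 0.66 and 0.94 TPM in astrocytes, and 0.39, 0.23, 0.10, 0.02 and 0.35 TPM in microglia. Groups did not overlap. Neurons were higher than astrocytes by 1.44 (SE 0.20) and higher than microglia by 2.04 (SE 0.20) on the log2 scale (limma, adjusted p = 7.59e-06 and 5.34e-08). The other muscarinic genes averaged highest in neurons, at 0.946 TPM for Chrm3, 0.364 TPM for Chrm2, 0.338 TPM for Chrm5 and 0.296 TPM for Chrm4, and none passed the filter.

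The 16 nicotinic subunit genes summed to 17.3 ± 2.47 TPM in neurons, 7.55 ± 4.15 TPM in astrocytes and 2.25 ± 0.743 TPM in microglia (SD, n = 5 each). Only Chrna4 and Chrnb1 were tested. Chrna4, a subunit of the high-affinity nicotine receptor of the brain (chr2:181018380-181043546, minus strand), was at 7.0, 10.24, 3.25, 9.93 and 8.99 TPM in neurons, 1.98, 0.67, 1.76, 6.23 and 2.28 TPM in astrocytes, and 0.52, 0.52, 0.09, 0.16 and 0.28 TPM in microglia. Neurons and astrocytes overlapped through neuron library 3 and astrocyte library 4. The log2 difference was 1.40 (SE 0.32) in neurons minus astrocytes, 2.69 (SE 0.32) in neurons minus microglia and 1.29 (SE 0.32) in astrocytes minus microglia (limma, adjusted p = 0.00121, 6.82e-07 and 0.00150). The last was 0.99 without astrocyte library 4, 0.996 with median-of-ratios scaling and 0.70 with quantile normalization, and so was no longer called. It was also lost without all libraries numbered 3 and 4 (0.82). Without all libraries numbered 1 and 2, neurons minus astrocytes fell short as well (0.94, adjusted p = 0.0774).

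Chrnb1, known as a subunit of the muscle receptor at the neuromuscular junction (chr11:69784036-69795943, minus strand), was nearly as abundant. Its level was 5.5, 6.18, 8.65, 6.72 and 6.92 TPM in neurons, 1.57, 0.99, 2.48, 3.12 and 2.18 TPM in astrocytes, and 0.14, 1.19, 1.0, 0.27 and 0.74 TPM in microglia. Neurons stood clear of both glial groups, which overlapped. Neurons were higher by 1.38 (SE 0.22) than astrocytes and by 2.26 (SE 0.22) than microglia (limma, adjusted p = 3.69e-05 and 5.08e-08). Its muscle partners Chrna1, Chrnd, Chrne and Chrng were under 1 TPM in every group mean.

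Chrnb2, the usual partner of Chrna4, averaged 0.580 TPM in neurons, 0.566 TPM in astrocytes and 0.078 TPM in microglia, below the filter, and 16.3% of its exonic bases overlap exons of the antisense gene Adar. Chrna7, the subunit of the alpha-bungarotoxin-binding channel, averaged 0.728 TPM in neurons, 0.950 TPM in astrocytes and 0.046 TPM in microglia. Exons of the antisense gene Art1 overlap 39.0% of the exonic bases of Chrna10, which stayed under 0.05 TPM in every group mean.

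Ntsr2, a low-affinity receptor for neurotensin that is used as an astrocyte marker (chr12:16653382-16660227, plus strand), had the highest level of any receptor here. It was at 6.0, 23.35, 3.44, 8.19 and 15.72 TPM in neurons, 3096.36, 2946.77, 2820.13, 2489.94 and 2471.46 TPM in astrocytes, and 63.35, 50.97, 50.55, 35.25 and 70.81 TPM in microglia. No group overlapped another. The log2 difference was -8.06 (SE 0.33) in neurons minus astrocytes, -2.38 (SE 0.33) in neurons minus microglia and 5.68 (SE 0.33) in astrocytes minus microglia (limma, adjusted p = 1.31e-12, 4.94e-06 and 4.73e-11). By mean level among all 20610 genes it ranked 5914 in neurons, 36 in astrocytes and 1782 in microglia. Its level was 0.410% of the astrocyte level in neurons and 1.96% of it in microglia, and the sum of the 12 astrocyte markers was at 1.13% in neurons and 2.33% in microglia. The part of astrocyte RNA in these 2 levels was not tested. Ntsr1, the high-affinity neurotensin receptor, averaged 0.284 TPM in neurons, 0.300 TPM in astrocytes and 0.014 TPM in microglia.

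Npy1r, a Gi-coupled receptor for neuropeptide Y (chr8:66697192-66706792, plus strand), was the receptor with the highest level among those enriched in neurons. It was at 8.19, 5.31, 11.83, 10.41 and 17.36 TPM in neurons, 2.15, 1.90, 2.42, 3.34 and 2.0 TPM in astrocytes, and 0.60, 0.40, 0.41, 0.20 and 1.09 TPM in microglia. The 3 groups stood apart. The difference was 1.72 (SE 0.24) in neurons minus astrocytes, 2.85 (SE 0.24) in neurons minus microglia and 1.14 (SE 0.24) in astrocytes minus microglia (limma, adjusted p = 8.61e-06, 7.66e-09 and 3.48e-04). The last was 0.80 under median-of-ratios scaling, 0.47 under quantile normalization and 0.85 without all libraries numbered 3 and 4. In none of these was it called. Npy5r at 0.562 TPM and Npy2r at 0.410 TPM had their highest mean in neurons, Npy6r was above 0 in 2 libraries, and Npy4r was listed at 0 throughout.

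Somatostatin receptors, which are Gi-coupled, summed to 8.95 ± 3.07 TPM in neurons, 1.95 ± 1.34 TPM in astrocytes and 0.276 ± 0.122 TPM in microglia (SD, n = 5 each). Sstr2, the main target of octreotide (chr11:113619342-113626028, plus strand), was at 3.0, 1.69, 6.53, 5.62 and 7.80 TPM in neurons, 0.73, 1.05, 0.30, 0.79 and 0.41 TPM in astrocytes, and 0.17, 0.12, 0, 0 and 0.03 TPM in microglia. Groups did not overlap. Neurons were higher by 1.73 (SE 0.25) than astrocytes and by 2.35 (SE 0.25) than microglia (limma, adjusted p = 1.53e-05 and 1.97e-07).

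Sstr1 (chr12:58211772-58214444, plus strand) was at 2.0, 2.16, 1.06, 1.61 and 1.56 TPM in neurons, 0.15, 0.59, 0.65, 1.24 and 0.37 TPM in astrocytes, and 0, 0, 0, 0.08 and 0 TPM in microglia. Neurons and astrocytes overlapped, and the 0.76 between them was too small for a call (limma, adjusted p = 6.02e-04). With all libraries and the pseudocount of 1, the call was made against microglia only, at 1.38 (SE 0.16, adjusted p = 5.15e-07). Neurons minus astrocytes was called without all libraries numbered 3 and 4 (1.09, adjusted p = 1.92e-04) and with a pseudocount of 0.1 (1.52, adjusted p = 0.00340). Sstr4, which averaged 1.55 ± 0.637 TPM in neurons, 0.210 ± 0.180 TPM in astrocytes and 0.124 ± 0.072 TPM in microglia, missed the filter because 4 neuron libraries reached 1 TPM. With no filter on low values it was higher in neurons by 1.05 than in astrocytes and by 1.14 than in microglia (limma, adjusted p = 5.61e-05 and 1.26e-05). Sstr3 averaged 0.730 TPM in neurons, 0.468 TPM in astrocytes and 0.048 TPM in microglia, and Sstr5 stayed under 0.1 TPM.

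The Gi-coupled opioid family was represented by the nociceptin receptor Oprl1 (chr2:181715016-181720985, plus strand) and the dynorphin receptor Oprk1 (chr1:5588466-5606131, plus strand). Oprl1 was at 3.5, 3.61, 3.66, 5.18 and 5.72 TPM in neurons, 0.75, 1.03, 0.72, 2.98 and 1.88 TPM in astrocytes, and 0.10, 0.16, 0.10, 0.22 and 0.30 TPM in microglia. Groups did not overlap. Its difference was 1.17 (SE 0.21) in neurons minus astrocytes and 2.16 (SE 0.21) in neurons minus microglia (limma, adjusted p = 1.36e-04 and 5.24e-08).

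Oprk1 was at 1.52, 1.21, 3.43, 2.47 and 2.04 TPM in neurons, 0.15, 0.07, 0.70, 0.45 and 0.50 TPM in astrocytes, and 0.03, 0, 0.01, 0.01 and 0.21 TPM in microglia. Neuron libraries lay above all others, by 1.17 (SE 0.18) over astrocytes and 1.54 (SE 0.18) over microglia (limma, adjusted p = 2.24e-05 and 4.57e-07). The enkephalin and morphine receptor Oprm1 averaged 0.112 TPM in neurons, 0.814 TPM in astrocytes and 0.006 TPM in microglia and was above 0 in 9 of the 15 libraries. Oprd1 was near 0.1 TPM in neurons and astrocytes.

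The VIP receptors and the tachykinin receptors had no tested member. Vipr1, a Gs-coupled VIP receptor (chr9:121642716-121672954, plus strand), was at 0.57, 0.32, 0.64, 0.46 and 14.99 TPM in neurons, 0.12, 0.11, 0.29, 0.04 and 0.14 TPM in astrocytes, and 0.49, 0.32, 0.88, 0.73 and 0.94 TPM in microglia. Neuron library 5 thus set the neuron mean of 3.40 TPM, and the family sum in neurons was 1.51 TPM without that library, against 4.29 TPM with it. In the other 4 neuron libraries Vipr1 overlapped the microglia values. Vipr2 averaged 0.892 TPM in neurons, 0.716 TPM in astrocytes and 0.114 TPM in microglia. Tacr1, the receptor for substance P, was at 0.17, 0.09, 0.39, 0.17 and 0.45 TPM in neurons, 0.07, 0, 0, 0.06 and 0.1 TPM in astrocytes, and 0, 0.03, 0, 0 and 0.01 TPM in microglia. All of these values were under 0.5 TPM, and neurons overlapped astrocytes. The whole tachykinin family summed to 0.352 ± 0.236 TPM in neurons (SD, n = 5).

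**Figure D5:**
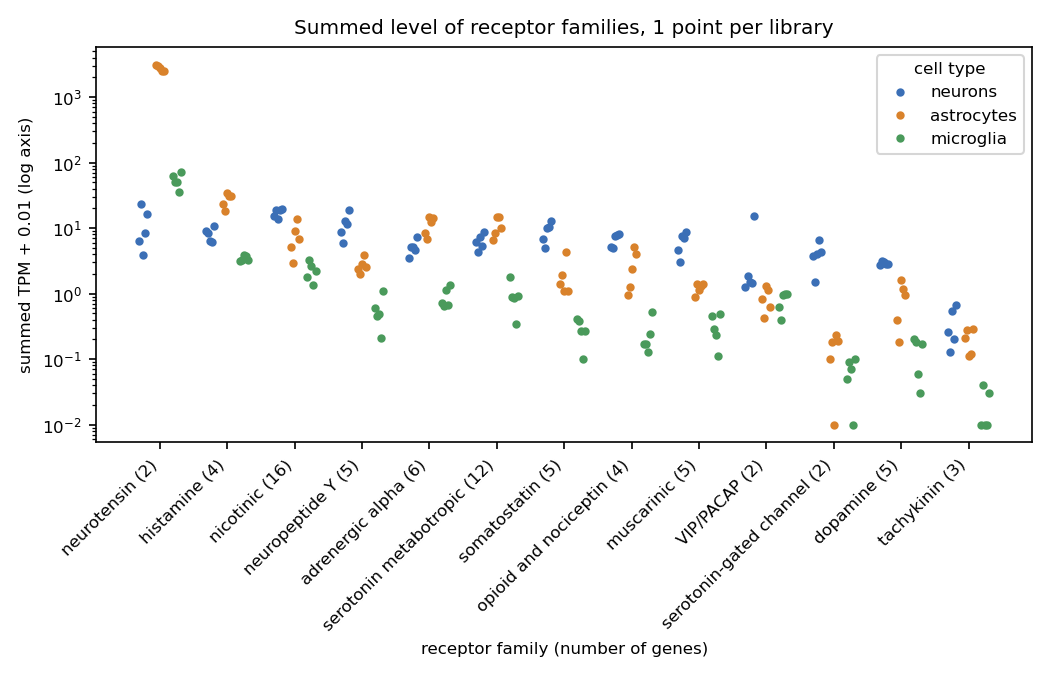
Each point is the sum of 1 of 13 receptor families in 1 library of neurons, astrocytes or microglia, in TPM with 0.01 added, on a log axis, with the number of genes in brackets. Astrocytes lead in neurotensin (2472 to 3096 TPM) and histamine receptors (18.3 to 34.7 TPM), and neurons in neuropeptide Y and somatostatin receptors.

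The levels of the 10 neuron-enriched receptors in the glial libraries were set beside the neuronal marker sum. Relative to neurons, they ran from 3.28% (Htr3a) to 40.1% (Hrh3) in astrocytes and from 1.30% (Sstr2) to 11.2% (Hrh3) in microglia. The pan-neuronal marker sum was at 19.1% in astrocytes and 7.05% in microglia. Its members varied: in astrocytes against neurons, Map2 averaged 34.9 against 25.9 TPM, Elavl4 12.1 against 15.4 TPM and Syt1 3.59 against 42.3 TPM. Map2 was the only member of that sum higher in astrocytes than in neurons. The part of neuronal RNA in these receptor levels was not tested. The neuron libraries, where these receptors were highest, also held the highest endothelial sum (8338 ± 1391 TPM, against 942 ± 192 TPM in astrocytes and 121 ± 40.1 TPM in microglia) and mural sum (3447 ± 945 TPM, against 1870 ± 289 TPM in astrocytes and 148 ± 53.2 TPM in microglia). The 2 red blood cell markers in the table summed to 464 ± 324 TPM in neurons, 7.69 ± 2.21 TPM in astrocytes and 3.15 ± 2.08 TPM in microglia (SD, n = 5 each). The part of these cells in the levels of the neuron-enriched receptors was not tested. Without microglia libraries 1 and 2, the pair rich in oligodendrocyte markers, neurons had 10 enriched receptors, astrocytes 5 and microglia 3, which are the counts obtained with all libraries. Without all libraries numbered 1 and 2 they numbered 8 in neurons, where Chrna4 and Drd1 were lost, 5 in astrocytes and 3 in microglia.

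The genes that supply, remove and transduce these transmitters were read from 8 lists. Over all tested genes, 12.9% were higher and 12.7% lower in neurons than in astrocytes, 29.5% and 9.74% in neurons than in microglia, and 32.3% and 10.2% in astrocytes than in microglia, and the medians were -0.03, 0.48 and 0.57. Of 15 peptide ligand genes, 12 were tested. Between neurons and astrocytes 7 were higher and 0 lower, between neurons and microglia 11 were higher and 0 lower, and between astrocytes and microglia 3 were higher and 0 lower. Their median log2 differences were 2.22, 3.17 and 0.62. As higher and lower shares of the tested genes these were 58.3% and 0%, 91.7% and 0%, and 25% and 0%. Npy, the ligand of Npy1r, averaged 580.5 ± 335.5 TPM in neurons, 44.7 ± 11.4 TPM in astrocytes and 17.2 ± 11.9 TPM in microglia (SD, n = 5 each). Penk, the enkephalin precursor, averaged 138.5 ± 63.0 TPM in neurons, 3.92 ± 1.43 TPM in astrocytes and 2.59 ± 1.39 TPM in microglia. Sst, which is also 1 of the inhibitory neuron markers, averaged 156 ± 119 TPM in neurons, 13.5 ± 7.14 TPM in astrocytes and 9.78 ± 7.42 TPM in microglia. These 3 precursors were called higher in neurons than in both other cell types.

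Nts, the precursor of the Ntsr2 ligand neurotensin, followed another pattern. It averaged 15.7 ± 4.43 TPM in neurons, 11.4 ± 2.74 TPM in astrocytes and 0.542 ± 0.198 TPM in microglia (SD, n = 5 each). Neurons and astrocytes differed by 0.42 (SE 0.20, limma adjusted p = 0.0913), and both exceeded microglia, by 3.41 and 2.99 on the log2 scale (adjusted p = 9.69e-11 and 4.31e-10).

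Of the 16 genes of monoamine and acetylcholine synthesis and vesicle loading, 8 were tested. Against astrocytes, neurons had 2 higher and 3 lower, in neurons against microglia 4 higher and 1 lower, and in astrocytes against microglia 2 higher and 1 lower, with medians of 0.16, 0.92 and 0.81. In shares of the tested genes, higher and lower, the counts were 25% and 37.5%, 50% and 12.5%, and 25% and 12.5%. Hdc, which makes histamine, averaged 9.17 ± 3.26 TPM in neurons, 22.1 ± 7.99 TPM in astrocytes and 1.68 ± 0.630 TPM in microglia (SD, n = 5 each). It was called lower in neurons than in astrocytes, at -1.17, and higher in both than in microglia, by 1.90 and 3.07 on the log2 scale (limma, adjusted p = 0.00167, 8.37e-06 and 1.74e-08). Astrocytes were thus highest for both Hdc and the receptor Hrh1. Ddc, the aromatic amino acid decarboxylase, was highest in neurons at 63.8 ± 13.03 TPM, against 9.29 ± 2.60 TPM in astrocytes and 7.14 ± 5.32 TPM in microglia.

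Of the 16 uptake and breakdown genes, 10 were tested. In neurons against astrocytes 2 were higher and 3 lower, in neurons against microglia 6 higher and 2 lower, and in astrocytes against microglia 5 higher and 1 lower, with medians of 0.31, 1.72 and 0.91. As higher and lower shares of the tested genes these were 20% and 30%, 60% and 20%, and 50% and 10%. Maob, a monoamine oxidase, averaged 12.5 ± 2.99 TPM in neurons, 97.0 ± 10.3 TPM in astrocytes and 3.21 ± 1.11 TPM in microglia (SD, n = 5 each). Neurons were lower than astrocytes at -2.88 and astrocytes higher than microglia by 4.58 on the log2 scale (limma, adjusted p = 1.46e-09 and 8.27e-13). Hnmt, which methylates histamine, averaged 11.4 ± 3.02 TPM in neurons, 36.3 ± 1.53 TPM in astrocytes and 48.6 ± 4.63 TPM in microglia, and was called lower in neurons than in each glial type. The cholinesterases Ache and Bche were both called higher in neurons than in each other cell type.

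Among the 15 peptidases, 13 were tested. Set against astrocytes, neurons had 1 higher and 2 lower, in neurons against microglia 7 higher and 0 lower, and in astrocytes against microglia 8 higher and 0 lower, with medians of -0.20, 1.18 and 1.40. In shares of the tested genes, higher and lower, the counts were 7.69% and 15.4%, 53.8% and 0%, and 61.5% and 0%. Cpe, carboxypeptidase E, which processes peptide precursors, averaged 485 ± 90.6 TPM in neurons, 8969 ± 292 TPM in astrocytes and 219 ± 95.2 TPM in microglia (SD, n = 5 each). Nln, neurolysin, which cleaves neurotensin, was at 3.29 ± 0.922 TPM in neurons, 11.3 ± 1.87 TPM in astrocytes and 4.25 ± 0.762 TPM in microglia. Astrocytes were called higher than both other cell types for each of these enzymes.

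Of the 25 G protein subunit genes, 24 were tested. In neurons against astrocytes 6 were higher and 4 lower, in neurons against microglia 13 higher and 3 lower, and in astrocytes against microglia 7 higher and 3 lower, with medians of 0.34, 1.21 and 0.75. As higher and lower shares of the tested genes these were 25% and 16.7%, 54.2% and 12.5%, and 29.2% and 12.5%. In astrocytes against microglia both were close to the shares of all tested genes. Gna15, a Gq-class alpha subunit of blood cells, averaged 0.270 ± 0.075 TPM in neurons, 0.466 ± 0.182 TPM in astrocytes and 119 ± 24.8 TPM in microglia (SD, n = 5 each). Its log2 difference was -6.54 in neurons minus microglia and -6.34 in astrocytes minus microglia (limma, adjusted p = 5.61e-16 and 1.23e-15). Gnao1, the Go alpha subunit, was highest in astrocytes, at 23.8 ± 4.82 TPM in neurons, 144 ± 28.9 TPM in astrocytes and 6.68 ± 1.96 TPM in microglia. Gng3 was highest in neurons, at 138 ± 35.0 TPM, against 29.4 ± 11.2 TPM in astrocytes and 13.7 ± 9.42 TPM in microglia.

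All 25 receptor kinases, arrestins and RGS proteins were tested, the last of which speed the return of G proteins to rest. Relative to astrocytes, neurons had 4 higher and 4 lower, in neurons against microglia 10 higher and 6 lower, and in astrocytes against microglia 10 higher and 7 lower, with medians of 0.54, 0.75 and 0.69. In shares of the tested genes, higher and lower, the counts were 16% and 16%, 40% and 24%, and 40% and 28%. The first pair was close to that of all tested genes. Rgs10 averaged 33.3 ± 5.76 TPM in neurons, 16.3 ± 4.51 TPM in astrocytes and 2181 ± 298 TPM in microglia (SD, n = 5 each), and Rgs2 averaged 20.9 ± 7.17 TPM in neurons, 9.60 ± 1.42 TPM in astrocytes and 651 ± 170 TPM in microglia. Rgs1, Rgs18, Rgs19 and Arrb2 were likewise called higher in microglia than in both other cell types. Rgs20 led in astrocytes, at 4.27 ± 0.573 TPM in neurons, 82.7 ± 18.9 TPM in astrocytes and 2.17 ± 0.218 TPM in microglia, and so did Grk3, at 4.18 ± 1.08 TPM in neurons, 41.5 ± 12.2 TPM in astrocytes and 7.52 ± 2.44 TPM in microglia.

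Of the 26 adenylyl cyclase, phospholipase C and cyclic AMP target genes, 25 were tested. In neurons against astrocytes 3 were higher and 3 lower, in neurons against microglia 16 higher and 2 lower, and in astrocytes against microglia 13 higher and 2 lower, with medians of 0.53, 1.18 and 1.08. As higher and lower shares of the tested genes these were 12% and 12%, 64% and 8%, and 52% and 8%. The first pair was close to that of all tested genes. The 2 genes higher in microglia were the same in both comparisons. Adcy7, a cyclase of blood cells, averaged 0.456 ± 0.114 TPM in neurons, 1.05 ± 0.809 TPM in astrocytes and 24.1 ± 6.25 TPM in microglia (SD, n = 5 each), and Plcb2, a phospholipase C, averaged 0.300 ± 0.187 TPM in neurons, 0.198 ± 0.244 TPM in astrocytes and 6.57 ± 1.60 TPM in microglia. Adcy2 was highest in astrocytes, at 8.70 ± 2.77 TPM in neurons, 55.5 ± 9.14 TPM in astrocytes and 2.14 ± 0.608 TPM in microglia.

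Of the 10 chaperones and modulators of nicotinic receptors, 9 were tested. Against astrocytes, neurons had 3 higher and 2 lower, in neurons against microglia 6 higher and 0 lower, and in astrocytes against microglia 7 higher and 1 lower, with medians of 0.39, 2.67 and 2.10. In shares of the tested genes, higher and lower, the counts were 33.3% and 22.2%, 66.7% and 0%, and 77.8% and 11.1%. Ly6h averaged 90.9 ± 14.1 TPM in neurons, 21.2 ± 3.58 TPM in astrocytes and 4.71 ± 2.64 TPM in microglia (SD, n = 5 each). Lypd6 was highest in astrocytes, at 2.28 ± 1.07 TPM in neurons, 18.6 ± 3.94 TPM in astrocytes and 1.86 ± 0.883 TPM in microglia. Ly6e, which blood and endothelial cells also express, was the one gene lower in astrocytes than in microglia, at 3606 ± 776 TPM in neurons, 467 ± 45.6 TPM in astrocytes and 3019 ± 718 TPM in microglia.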

How the data were processed

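The authors deposited 1 table of TPM values per gene for the 15 libraries, with 1 column per library and no pooling. The submitters' processing notes name the mm10 build and list RSEM 1.2.28 beside STAR 2.7.1a, with DESeq2 1.36.0 and Trim Galore 0.6.4 among the other tools, without their roles; the gene annotation and the strand setting of counting are not given in the sources used here. Per the labels' protocols, RNA was reverse transcribed, amplified by PCR and sequenced as paired reads of 150 bases, with a stated mean of 30000000 reads for each library. TPM keeps no depth, so no counting interval can be given.

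From these values, log2(TPM + 1) was fitted with limma 3.58.1 (empirical Bayes with a trend) in R 4.3.3, over genes at 1 TPM or more in at least 5 libraries, with 1 mean per cell type and no block. P-values were adjusted by Benjamini-Hochberg over 13351 genes, and calls needed an adjusted p below 0.05 and a log2 difference of at least 1. Summaries and figures used Python 3.11.15 with pandas 2.3.3 and matplotlib 3.10.9. The fit was tested on simulated data. Gene positions are from GENCODE on mm10 (GRCm38), in which all 74 genes were found.

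Per-library values are given for the members with the largest differences among those called in at least 1 comparison (at most 25) and for the highest member of each family; from each of the 8 related lists, up to 4 genes per comparison with the largest called differences, plus any that went against the list, could be named. Of the genes these rules name, 1 receptor and 1 breakdown enzyme are not reported here. Members and lists were chosen with earlier results of these data known. Replicate numbers were checked for pairing: deviations of same-numbered libraries correlated at 0.216 to 0.382 between neurons and microglia, at -0.0329 to 0.233 between neurons and astrocytes and at -0.0110 to 0.249 between astrocytes and microglia. Neuron libraries 1, 3, 4 and 5 correlated best with the microglia library of their own number, and neuron library 2 with microglia library 1. Only neuron libraries 2 and 3 correlated best with the same-numbered astrocyte library. Only astrocyte libraries 2 and 4 did so with microglia. No label ties a number to an animal. Alternatives tried were quantile normalization and median-of-ratios scaling, fits with no filter or with one of 5 TPM, a pseudocount of 0.1, pairs of groups fitted alone, a replicate block, each library left out, and sets of numbered libraries left out.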

Additional observations from a re-analysis of the deposited data

Results flagged for a closer look

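Over the 22 receptors that the naming rule selects, 66 groups of 5 libraries were examined for a single value far from the others, by the gap to its neighbour over the range of the group (Dixon, limit 0.71). Chance marks about 1 in 20 such groups, and 7 were marked. In neuron library 5, Vipr1 was at 14.99 TPM, with the other 4 neuron libraries at 0.32 to 0.64 TPM, and Adra2a was at 1.38 TPM, with the others at 0.37 to 0.64 TPM. In neuron library 1, Adra1b was at 1.22 TPM, with the others at 2.56 to 3.04 TPM. In astrocyte library 4, Chrna4 was at 6.23 TPM, with the others at 0.67 to 2.28 TPM. The 3 marks in microglia concern genes close to 0: Oprk1 at 0.21 TPM in library 5, with the others at 0 to 0.03 TPM, Htr6 at 0.05 TPM in library 3 and Sstr1 at 0.08 TPM in library 4, with the others at 0. The cause of these values was not tested.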

How the results depend on the processing

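Over the 20 tested receptors and 3 comparisons, 1458 values were recomputed under 25 settings. Of these, 1408 stayed called or stayed uncalled, 30 lost the call and 20 gained it. Of the differences called in either fit, 0 changed sign, and signs of differences called in neither fit were not compared. Leaving out each library in turn gave 10 to 11 receptors higher in neurons than in astrocytes, 12 higher in neurons than in microglia and 8 to 10 higher in astrocytes than in microglia, with 9 to 10 enriched in neurons, 5 in astrocytes and 3 in microglia. With a replicate block, which pairs libraries by number, the counts were 11 and 5 (neurons against astrocytes, higher and lower), 12 and 4 (neurons against microglia) and 9 and 3 (astrocytes against microglia), and no receptor call changed.

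A filter of 5 TPM removed most receptors and left 4 higher and 2 lower in neurons than in astrocytes, 3 higher and 2 lower in neurons than in microglia, 4 higher and 1 lower in astrocytes than in microglia, and 3 enriched in neurons, 2 in astrocytes and 1 in microglia; of the uptake and breakdown genes called in at least 1 comparison, 5 were left, against 9. With a pseudocount of 0.1, 16 receptors were higher in astrocytes than in microglia, and with quantile normalization 5, against 9. Over all genes, those higher in neurons than in microglia numbered 3945, against 2447 by quantile normalization, and those lower 1300, against 2104 by median-of-ratios scaling and 1952 by quantile normalization. Those higher in astrocytes than in microglia numbered 4313, against 2618 by median-of-ratios scaling and 2471 by quantile normalization, and those lower 1359, against 2283 and 2048. Under median-of-ratios scaling the dopamine sum in neurons was 2.58 TPM and the neurotensin sum in astrocytes 2357 TPM. That scaling divides all values of a library by a single factor, so these sums moved with the factor. Why the factors differ between libraries was not tested. TPM keeps no depth, so what depth limits could not be measured; the 54 receptors below the filter were not tested, and a level near 0 does not show absence.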

Other observations

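Libraries 3 and 4 of each cell type held the highest values of all 5 in 1040 of the 13351 tested genes (7.79%), none of them a receptor described here, and the lowest in 241 (1.81%), among them Hrh3. With all libraries numbered 3 and 4 left out, 11 receptors were higher and 4 lower in neurons than in astrocytes, 12 higher and 3 lower in neurons than in microglia, and 7 higher and 3 lower in astrocytes than in microglia. Summed by coupling, the 30 Gi-coupled receptor genes were at 41.0 ± 11.1 TPM in neurons, 22.7 ± 6.04 TPM in astrocytes and 3.10 ± 1.43 TPM in microglia (SD, n = 5 each). The 18 ion channel subunit genes were at 21.3 ± 3.27 TPM in neurons, 7.68 ± 4.17 TPM in astrocytes and 2.30 ± 0.771 TPM in microglia.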
